A study of Homo sapiens with 4 samples.

Results

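The genes described here are 10 members of the ATF4 stress response and of serine synthesis, taken by symbol from the 20809 targets of the deposited tables, and all 10 were found there. They are the transcription factor genes ATF4 and DDIT3, the feedback gene TRIB3, the stress targets CHAC1, DDIT4 and ASNS, and the enzyme genes PHGDH, PSAT1, PSPH and SHMT2. RNA abundance was compared in MDA-MB-468, a basal-type triple-negative breast cancer (TNBC) cell line. A pair of libraries came from the parental line MDA-MB-468/WT (below, WT; n = 2; genotype WT, treatment none), and another pair came from the drug-resistant subline MDA-MB-468/R (below, R; n = 2). The subline had been exposed to adriamycin (doxorubicin), cytoxan (cyclophosphamide) and taxotere (docetaxel) at rising doses for 6 months and then given a recovery period. The protocol field of the WT samples also names these drugs, and the treatment and genotype labels were followed. Whether the subline was grown from a single cell, whether drug was present at harvest, and whether replicates were separate cultures is not given in the sources used here, and p-values therefore weigh only differences among these 4 libraries, whose variation may be technical.

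The integrated stress response joins several alarms to a single answer. Kinases that sense lacking amino acids, unfolded protein, double-stranded RNA or lacking heme phosphorylate the initiation factor eIF2, which lowers general translation and raises translation of the ATF4 message, so ATF4 activity is set to a large part after transcription. ATF4 then switches on genes that supply amino acids, among them the enzymes that make serine from a glycolytic intermediate, and, when stress lasts, genes such as DDIT3 (CHOP) and TRIB3. Serine feeds glycine and folate one-carbon units, and MDA-MB-468 is known as a breast cancer line with extra copies of PHGDH, the entry enzyme of the pathway.

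PHGDH was the only member of the 10 that passed the test, and it was higher in R. An Ion AmpliSeq library counts a single short amplicon per gene, so the values, given as reads per 1000000 reads (RPM), were compared between libraries and not between genes. The depth was 6839945 to 7980846 reads per library, where 3 reads correspond to 0.376 to 0.439 RPM. At an adjusted p of at most 0.05 (limma on log2 of RPM plus 1, 12115 genes tested), 1 of 10 members was higher and 0 were lower, against 5.35% and 10.6% of all tested genes (16.0% in either direction). At an unadjusted p of at most 0.05 there were 1 higher and 2 lower members, against 31.3% of all tested genes in either direction, and limma-voom also called 1 and 0. Of the 10, 0 reached the 2.5-fold threshold of a differentially expressed gene (DEG), which 3.26% of all tested genes did. The median log2 fold change of the members was 0.12 and that of all tested genes -0.03, and the median size of the change regardless of sign was 0.24 for both. On the scale of log2 of RPM plus 1, the 95% intervals of all 10 changes lay inside 2-fold, from 0.520-fold for CHAC1 at the lowest to 1.80-fold for DDIT3 at the highest, as did those of 80.6% of all tested genes. The added 1 RPM narrows the interval of DDIT3, which has about 1 RPM, and its counting interval reaches beyond 2-fold. Both R libraries lay on one side of both WT libraries for 7 members, 4 above and 3 below, where 58.3% of all tested genes were separated in this way.

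**Figure D1:**
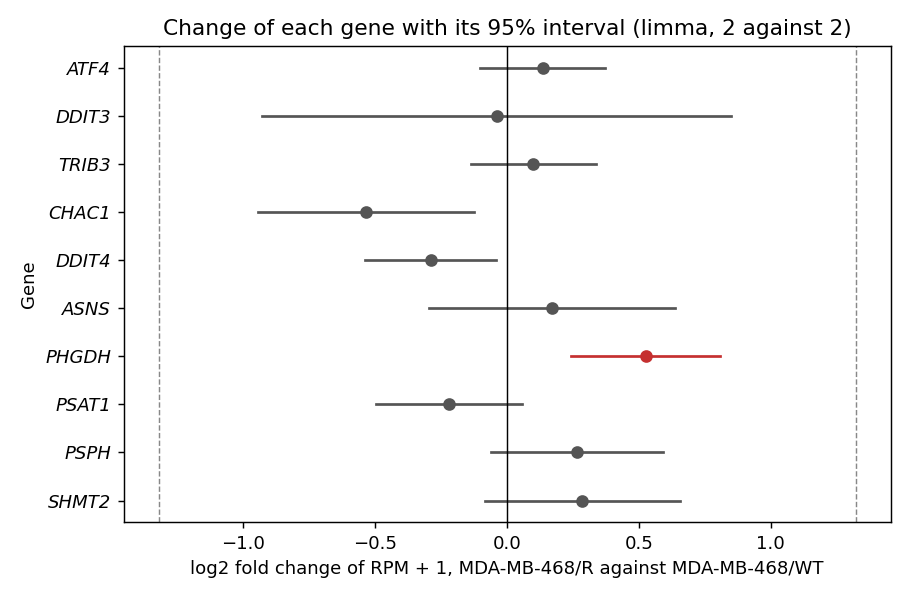
Log2 fold change of RPM plus 1 on the x axis, R against WT, for the 10 genes on the y axis, with 95% intervals from limma (2 libraries against 2). PHGDH at 0.525 (red) is the member that passed the adjusted p, and the dashed lines mark a 2.5-fold change, which no interval reaches.

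Promoters of the members were searched because the C/EBP-ATF response element, to which ATF4 binds with its partners, can be looked for in them. Those printed are of PHGDH, the member that rose, and of ASNS and CHAC1, the members in which the core was matched. Windows from 250 bases before to 50 bases after the start were taken from RefSeq for 8 of the 10 members, PSPH and SHMT2 having no entry. They were searched on both strands for the core TGATGNAA, which 3.62% of 35116 RefSeq promoter windows hold. The core was found in 2 members, ASNS at 68 bases before the start in 1 of its windows and CHAC1 at 209 bases before it, the latter on the opposite strand as TTGCATCA. No match in the PHGDH window says only that these letters are not in it. Neither the cyclic AMP response element TGACGTCA (1.85% of windows) nor the endoplasmic reticulum stress element (0.0769%) was found in a member window. The endoplasmic reticulum stress element was searched in its strict spelling only, so its absence holds for those exact letters. The DDIT3 windows hold a copy that differs from that spelling in the last letter alone, and its part in the DDIT3 values was not tested. The 250 bases before the start are printed 5′ to 3′ on the strand of the gene (RefSeq, GRCh38.p14), with the matched core in capitals.
PHGDH, chr1:119711684-119711933, + strand: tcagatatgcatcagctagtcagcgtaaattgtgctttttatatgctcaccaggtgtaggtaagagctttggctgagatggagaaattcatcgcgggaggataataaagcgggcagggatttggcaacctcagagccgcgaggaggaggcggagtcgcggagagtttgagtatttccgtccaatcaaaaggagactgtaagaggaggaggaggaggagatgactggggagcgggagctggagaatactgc
ASNS, chr7:97872409-97872658, - strand: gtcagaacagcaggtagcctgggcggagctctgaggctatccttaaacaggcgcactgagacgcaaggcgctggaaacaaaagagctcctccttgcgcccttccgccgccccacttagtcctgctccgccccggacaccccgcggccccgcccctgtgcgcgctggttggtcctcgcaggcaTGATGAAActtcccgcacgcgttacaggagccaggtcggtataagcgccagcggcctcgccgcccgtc
CHAC1, chr15:40953221-40953470, + strand: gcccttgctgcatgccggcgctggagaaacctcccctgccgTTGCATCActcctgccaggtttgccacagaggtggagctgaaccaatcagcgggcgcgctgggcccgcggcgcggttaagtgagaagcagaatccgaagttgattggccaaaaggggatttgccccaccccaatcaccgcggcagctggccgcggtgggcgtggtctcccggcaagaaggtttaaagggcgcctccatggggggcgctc
Of the members with the core, ASNS had a log2 fold change of 0.17 and CHAC1 of -0.535, and neither passed the test. This says nothing of genes outside the 10 members that hold the core.

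Of the 4 enzymes that make and use serine, PHGDH passed the test and PSAT1, PSPH and SHMT2 did not. PHGDH, which oxidises 3-phosphoglycerate in the committed step, had 266 and 271 RPM in WT and 430 and 349 RPM in R. Both R libraries were above both WT libraries, and the means of 389 ± 57.2 RPM (SD, n = 2) and 269 ± 3.97 RPM differed 1.45-fold. The log2 fold change was 0.525 (standard error 0.121, 95% interval 0.24 to 0.81, adjusted p = 0.0262 from limma), below the DEG threshold. With 1 library left out, a group is a single sample that is assumed to vary like the other pair, so the spread comes from the WT pair alone when an R library is left out and from the R pair alone when a WT library is. On these terms, which hold for each such value below, it was 0.375 (adjusted p = 0.0338) when R replicate 1 was left out and 0.675 (0.0251) when R replicate 2 was. Without WT replicate 1 it was 0.51 and no longer passed (adjusted p = 0.383), as without WT replicate 2, where it was 0.54 (0.350). In these settings the genes called among all tested genes fell to 63 and 61 from 1938.

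PSAT1, the transaminase of the next step, had 384 and 392 RPM in WT and 301 and 369 RPM in R, so both R libraries were below both WT libraries, replicate 2 by little. Its log2 fold change of -0.22 (95% interval -0.50 to 0.06) did not pass (adjusted p = 0.254 from limma), and without R replicate 2 it was -0.365 (0.0346). PSPH, the phosphatase that releases serine, had 253 and 262 RPM in WT and 356 and 270 RPM in R. Its log2 fold change was 0.265 (95% interval -0.06 to 0.59, adjusted p = 0.244), which rested on R replicate 1, since it was 0.07 without that library and 0.465 without the other (adjusted p = 0.0332, spread of the WT pair alone). SHMT2, the mitochondrial enzyme that turns serine into glycine and a one-carbon unit, had 88.9 and 88.3 RPM in WT and 127 and 92.1 RPM in R. R replicate 1 stood apart here too, and the log2 fold change of 0.285 (95% interval -0.08 to 0.65, adjusted p = 0.265) was 0.06 without it and 0.515 without replicate 2 (adjusted p = 0.0330).

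**Figure D2:**
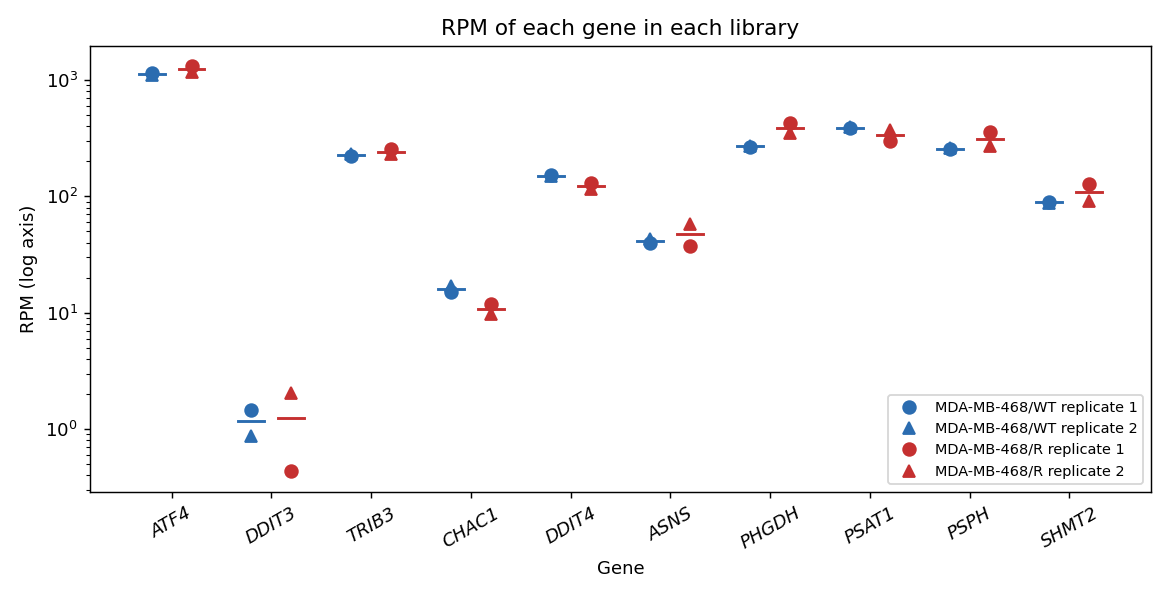
RPM (log y axis) of the 10 genes along the x axis, with blue for WT and red for R, circles for replicate 1, triangles for replicate 2 and lines for the means of 2 libraries. The blue points lie close together except for DDIT3, whereas the red points are apart for PSPH, SHMT2, ASNS and DDIT3, and DDIT3 is near 1 RPM.

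Ratios between genes within a library do not depend on how libraries are scaled, and they are given as values with no test, since an exact permutation test of 2 against 2 libraries cannot go below 0.333 (two-sided). The reads of PHGDH were 0.692 times those of PSAT1 in each WT library, and 1.43 and 0.946 times in the R libraries. The shift of PHGDH against PSAT1 was thus in the same direction in both R libraries and larger in replicate 1. Against PSPH, PHGDH was at 1.05 and 1.04 in WT and at 1.21 and 1.29 in R. The ratio of SHMT2 to PSAT1 was 0.231 and 0.225 in WT and 0.422 and 0.2497 in R.

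**Figure D3:**
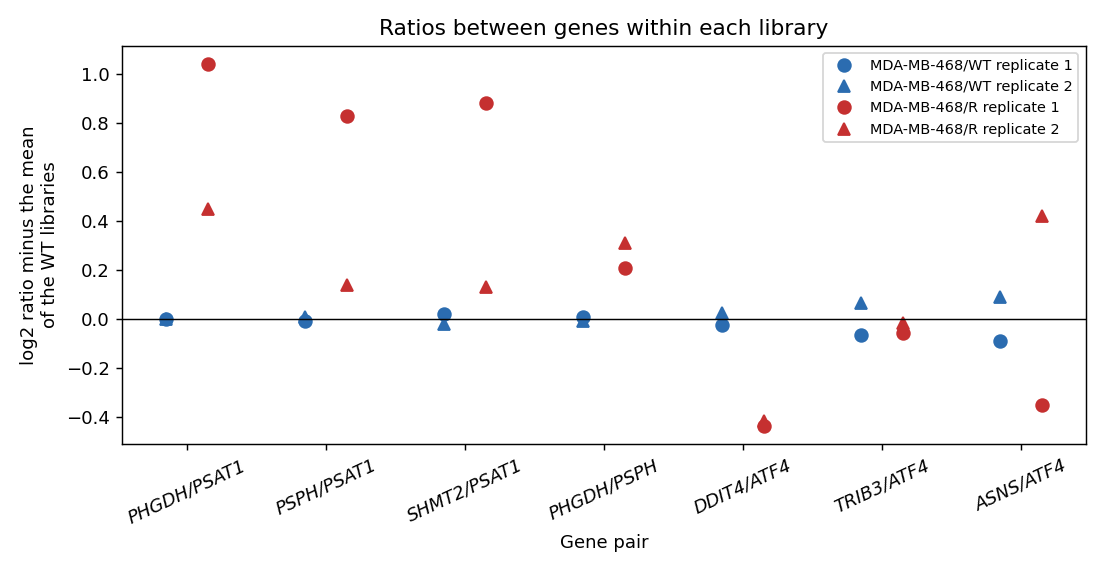
Log2 ratio of the reads of paired genes (x axis) within each library, minus the mean of the WT libraries (y axis), with blue for WT, red for R, circles for replicate 1 and triangles for replicate 2. The red points of PHGDH/PSAT1 lie above 0, with a mean shift of 0.745, those of DDIT4/ATF4 lie below 0, and those of TRIB3/ATF4 stay among the blue points.

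Neither transcription factor gene nor the feedback gene passed the test. ATF4, the effector of the response, had 1151 and 1104 RPM in WT and 1313 and 1167 RPM in R. Both R libraries were above, with a log2 fold change of 0.135 (95% interval -0.10 to 0.37, adjusted p = 0.415 from limma). TRIB3, a pseudokinase that ATF4 induces and that dampens it in turn, had 220 and 231 RPM in WT and 253 and 231 RPM in R. The groups touched at 231 RPM, and the log2 fold change was 0.10 (95% interval -0.14 to 0.34, adjusted p = 0.554). The ratio of TRIB3 to ATF4 reads was 0.191 and 0.2095 in WT and 0.193 and 0.198 in R.

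DDIT3, which encodes the stress factor CHOP, was close to the limit of detection of its amplicon. It had 10 and 7 reads in WT and 3 and 15 reads in R, that is 1.46 and 0.879 RPM against 0.434 and 2.05 RPM. The R libraries were the lowest and the highest of the 4. The summed reads of 18 and 17 gave a ratio of 1.09 with an exact 95% counting interval of 0.532 to 2.26, which covers counting error only, as amplified reads without molecular identifiers are not independent molecules. Its log2 fold change of -0.04 (adjusted p = 0.956 from limma) was 0.505 without R replicate 1, 0.155 without WT replicate 1 and -0.585 without R replicate 2, so no direction can be given. The counting interval is not a detection limit, and the size of change detectable for DDIT3 at this depth was not determined.

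Of the stress targets, CHAC1 and DDIT4 had negative log2 fold changes, and neither passed the adjusted p. CHAC1, which degrades glutathione, had 15.2 and 17.0 RPM in WT and 11.8 and 9.85 RPM in R. The groups did not overlap, and the log2 fold change of -0.535 (95% interval -0.94 to -0.13) had an unadjusted p of 0.0170 and an adjusted p of 0.0814 from limma. It stayed between -0.655 and -0.415 with any 1 library left out. DDIT4 (REDD1), an inhibitor of mTORC1, had 151 and 150 RPM in WT and 130 and 117 RPM in R, again without overlap. Its log2 fold change of -0.29 (95% interval -0.54 to -0.04, adjusted p = 0.110) was -0.365 without R replicate 1, with an adjusted p of 0.0380 that rests on the spread of the WT pair.

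DDIT4 is also induced by hypoxia, and 7 of 8 tested hypoxia genes were lower in R (10.6% of all tested genes were), with a median log2 fold change of -0.84. The remaining gene, VEGFA, had 0.365 (adjusted p = 0.0780 by limma). Their summed level was 596 and 597 RPM in WT and 363 and 365 RPM in R, and their part in the values of DDIT4 was not tested. ASNS, which makes asparagine, had 39.5 and 43.0 RPM in WT and 37.6 and 57.5 RPM in R. The R libraries lay on either side of both WT libraries. Its log2 fold change of 0.17 (95% interval -0.29 to 0.63, adjusted p = 0.613 from limma) was 0.47 when R replicate 1 was left out and -0.13 when R replicate 2 was.

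The replicates of the members lay further apart in R than in WT. The median difference between the replicates, regardless of sign, was 0.295 on the log2 scale in R and 0.055 in WT for the 10 members, against 0.23 and 0.10 for all tested genes. In R replicate 1, 7 members were higher than in replicate 2, with SHMT2 (by 0.46), PSPH (by 0.40) and PHGDH (by 0.30) ahead, while DDIT3, ASNS and PSAT1 were lower.

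**Figure D4:**
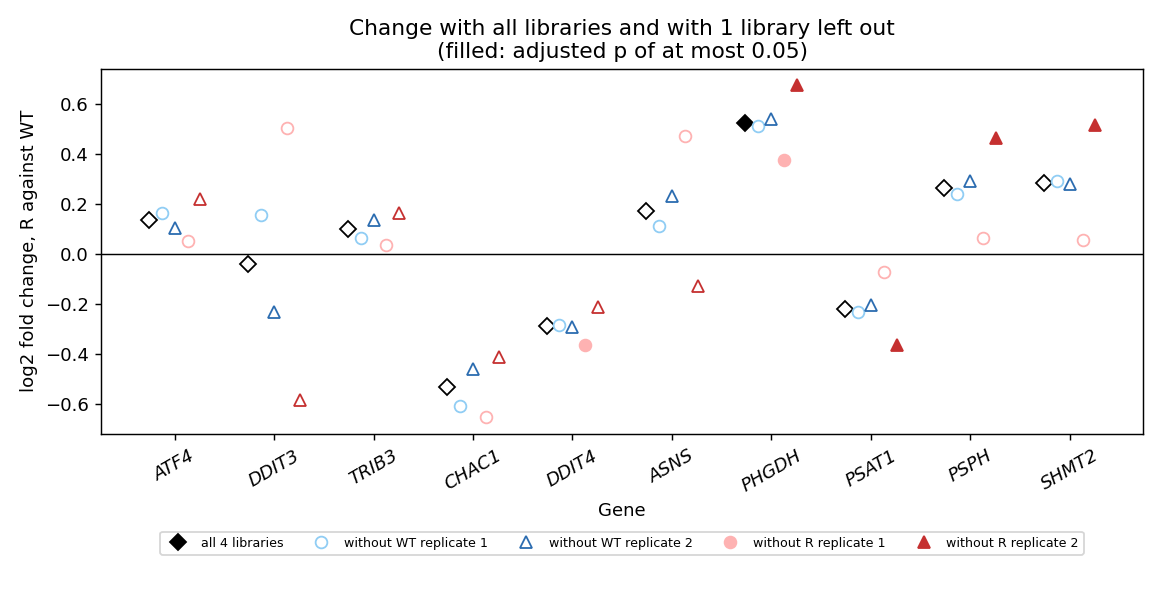
Log2 fold change on the y axis for the 10 genes on the x axis, with all 4 libraries (black diamonds) and with each library left out in turn (coloured points), where filled points had an adjusted p of at most 0.05. PHGDH stays above 0 in each setting and is open without either WT library, and the points of DDIT3 and ASNS fall on both sides of 0.

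Upstream of ATF4, the lists of related genes began with the kinases and phosphatase regulators of eIF2. Of 17 tested genes, 4 were lower and 0 higher by limma, against 10.6% and 5.35% of all tested genes (3 higher at an unadjusted p of at most 0.05, and 0 by limma-voom), with a median log2 fold change of 0.10. PPP1R15A (GADD34), the stress-induced partner that brings phosphatase to eIF2, fell from 24.6 and 23.8 RPM to 17.1 and 11.04 RPM (log2 fold change -0.77, adjusted p = 0.0488). PPP1R15B, its constitutive counterpart, fell from 57.9 and 42.1 RPM to 31.0 and 31.2 RPM (-0.65, adjusted p = 0.0404). The interferon-induced RNA sensor kinase EIF2AK2 (PKR) fell from 285 and 279 RPM to 178 and 196 RPM (-0.595), and the amino acid sensor kinase EIF2AK4 (GCN2) from 28.4 and 29.9 RPM to 19.8 and 18.6 RPM (-0.58). The kinases for unfolded protein, EIF2AK3 (PERK), and for heme, EIF2AK1 (HRI), had log2 fold changes of 0.11 (adjusted p = 0.681) and 0.195 (0.231). Without either WT replicate none of the list passed, without R replicate 1 there were 3 lower genes and without R replicate 2 there was 1, each of these with 1 higher gene. The adjusted p of PPP1R15A was 0.0524 with 0.25 RPM added in place of 1, 0.0705 with no filter on low reads, 0.0568 with a mean of at least 50 reads and 0.0631 without R replicate 2, and that of PPP1R15B was 0.164 and 0.159 without R replicate 1 or 2. Around PPP1R15B, 6 of the 20 nearest tested genes were also lower.

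Of 24 tested partners and further targets of ATF4 outside the 10 members, 8 were lower and 1 was higher, with a median log2 fold change of -0.09, against 10.6% lower and 5.35% higher among all tested genes. ATF3, a stress-induced repressor of the same family as ATF4, had 37.1 and 41.2 RPM in WT and 9.27 and 9.85 RPM in R (log2 fold change -1.93 ± 0.151 SE, adjusted p = 3.39e-04 by limma). STC2, a secreted glycoprotein induced by stress of the endoplasmic reticulum, fell from 173 and 169 RPM to 56.7 and 63.0 RPM (-1.50, adjusted p = 2.76e-04). These were the DEGs of the list, 2 in number, and the groups of neither overlapped. TNFRSF10B, the death receptor DR5 that CHOP can induce, fell from 62.1 and 46.8 RPM to 24.5 and 18.4 RPM (-1.31, adjusted p = 0.00501), and CTH, which makes cysteine, fell from 7.46 and 7.28 RPM to 4.13 and 2.32 RPM (-1.02, adjusted p = 0.0340). The higher gene was NUPR1, a small stress-induced chromatin protein, with 175 and 185 RPM in WT and 246 and 251 RPM in R (0.465, adjusted p = 0.0185). Without either WT replicate no gene of the list passed, and the adjusted p of ATF3 and of STC2 was then up to 0.0662 and 0.0645. Without R replicate 2, 4 genes of the list were higher, and TNFRSF10B (adjusted p = 0.0672) and CTH (0.0658) did not pass.

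Amino acid transporters and tRNA synthetases include many genes that ATF4 can raise. Of 23 tested, 2 were higher and 1 was lower, against 5.35% and 10.6% of all tested genes, with a median log2 fold change of 0.00. SLC3A2, the shared heavy chain of the cystine and leucine exchangers, rose from 245 and 251 RPM to 310 and 332 RPM (0.37, adjusted p = 0.0410 from limma), and the threonyl-tRNA synthetase TARS rose from 448 and 451 RPM to 595 and 599 RPM (0.41, adjusted p = 0.0226). SLC1A4, a carrier of alanine, serine and cysteine, fell from 79.4 RPM in both libraries to 55.1 and 46.5 RPM (-0.64, adjusted p = 0.0154). The cystine transporter SLC7A11, a common readout of ATF4, had 23.9 and 29.3 RPM in WT and 24.3 and 28.9 RPM in R. Its log2 fold change was 0.00 with a standard error of 0.165. None of the list passed without either WT replicate, and without R replicate 1 and replicate 2 there were 5 and 4 higher genes. Around TARS, 7 of the 20 nearest tested genes were higher.

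Downstream of serine stand the folate and glycine enzymes. Of 25 tested genes, 1 was higher and 2 were lower, against 5.35% and 10.6% of all tested genes, and the median log2 fold change was 0.07. SLC25A32, the folate carrier of the mitochondrial membrane, rose from 133 and 140 RPM to 248 and 220 RPM (0.77, adjusted p = 0.00418 from limma). It lies on chromosome 8 in a stretch where 4 of the 20 nearest tested genes were higher and 1 was lower. Their median log2 fold change was 0.35. At an unadjusted p of at most 0.05 there were 12 of the 20, 11 of them higher, against 31.3% of all tested genes. SFXN3, of the sideroflexin family of mitochondrial serine carriers, fell from 11.6 and 10.2 RPM to 4.28 and 3.69 RPM (-1.26, adjusted p = 0.00573), and MTR, the methionine synthase, fell from 41.8 and 43.9 RPM to 30.1 and 27.6 RPM (-0.555, adjusted p = 0.0284). MTHFD2, the mitochondrial partner of SHMT2 and a known ATF4 target, had a log2 fold change of 0.07 (adjusted p = 0.702), with -0.03 to 0.17 when 1 library was left out. No gene of the list passed without either WT replicate, and without R replicate 1 there were 2 higher and 3 lower genes. MTR did not pass without R replicate 2 (adjusted p = 0.0510). Around MTR, 6 of the 20 nearest tested genes were lower.

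The other arms of the unfolded protein response held changes in both directions. Of 21 tested genes of the XBP1 and ATF6 arms, 3 were higher and 3 were lower, against 5.35% and 10.6% of all tested genes, with a median log2 fold change of -0.05. XBP1, whose message is spliced by IRE1, rose from 213 and 214 RPM to 395 and 376 RPM (0.85 ± 0.0945 SE, adjusted p = 0.00146 from limma), and an amplicon count does not tell the spliced from the unspliced form. HERPUD1, which acts in degradation at the endoplasmic reticulum, and CREB3L2, a membrane-bound factor, were higher by 0.43 (adjusted p = 0.0390) and 0.665 (0.0243). The sensor gene ATF6 fell from 69.5 and 67.6 RPM to 40.9 and 44.3 RPM (-0.675), the secreted factor MANF from 110 and 114 RPM to 61.2 and 69.5 RPM (-0.77), and EDEM1, which hands glycoproteins to degradation, from 86.4 and 93.4 RPM to 50.6 and 56.7 RPM (-0.735). The chaperone HSPA5 (BiP), the usual readout of such stress, had a log2 fold change of 0.105 (adjusted p = 0.596), which was -0.04 without R replicate 1 and 0.25 without R replicate 2 (0.0422). None of the list passed without either WT replicate, nor HERPUD1 without R replicate 1 (adjusted p = 0.0615).

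Among relatives of DDIT4 and TRIB3, that is mTORC1 regulators and the other Tribbles genes, 3 of 18 tested were higher and 0 lower by limma, against 5.35% and 10.6% of all tested genes (1 lower at an unadjusted p of at most 0.05, and 0 by limma-voom), with a median log2 fold change of 0.25. DEPTOR, which binds and inhibits mTOR, rose from 6.57 and 8.25 RPM to 33.8 and 32.8 RPM (2.04 ± 0.170 SE, adjusted p = 4.36e-04 from limma) and was the DEG of this list. It lies on chromosome 8, and 8 of the 20 nearest tested genes were higher and 0 lower, with a median of 0.58 (15 of the 20 at an unadjusted p of at most 0.05, 14 of them higher). SESN3, a sestrin that restrains mTORC1, rose from 6.31 and 7.28 RPM to 15.3 and 13.4 RPM (0.98, adjusted p = 0.0119), and TRIB2 rose from 109 and 107 RPM to 155 and 142 RPM (0.46, adjusted p = 0.0261). The related SESN2, an ATF4 target counted with the partners above, fell from 29.7 and 30.1 RPM to 19.97 and 21.5 RPM (-0.51, adjusted p = 0.0463). Without either WT replicate no gene of the list passed (adjusted p of up to 0.0549 for DEPTOR), and without R replicate 1 there were 2, SESN3 then having an adjusted p of 0.0564. SESN2 did not pass without R replicate 1 (adjusted p = 0.0555) or with RLE scaling (0.0588).

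**Figure D5:**
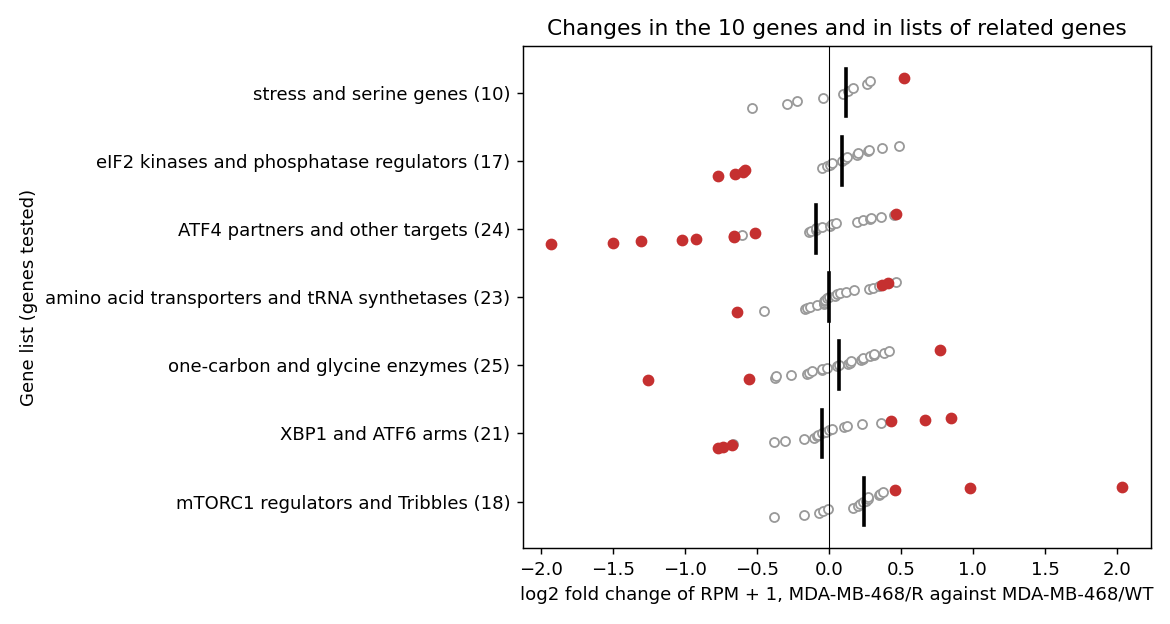
Log2 fold change of R against WT (x axis) of the 10 stress and serine genes and of 6 lists of related genes on the y axis, with the number of tested genes in brackets. Each point is a gene, red if its adjusted p was at most 0.05, and each black bar is the median of a list, from -0.09 for the ATF4 partners and other targets to 0.25 for the mTORC1 regulators and Tribbles genes.

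The genes next to the members on their chromosomes were looked up in the RefSeq order, since gene copies are known to be gained near PHGDH and near EGFR in this line. Each count of neighbours below stands against 5.35% higher and 10.6% lower among all tested genes. Of the 20 tested genes nearest to PHGDH on chromosome 1, 2 were higher and 3 were lower, with a median log2 fold change of 0.03. Its direct neighbours ZNF697 and NOTCH2 had 0.55 (adjusted p = 0.151) and 0.03 (0.901). Both higher genes, VTCN1 (0.58) and FAM46C (1.34), lay on the ZNF697 side of PHGDH. The 3 lower genes, EMBP1 (-1.105), NBPF15 (-0.585) and FAM72D (-1.05), lay on the NOTCH2 side. Neighbours were taken by gene order alone, so some can lie far from PHGDH, and distances in bases were not examined. The median of 0.03 pools both sides and does not describe either of them. PSPH lies on chromosome 7 close to EGFR, whose log2 fold change was -0.135 (adjusted p = 0.471), and 2 of its 20 neighbours were higher and 1 was lower, with GBAS at -0.08 and CCT6A at 0.25 beside it. Around PSAT1 on chromosome 9, 7 of 20 neighbours were lower and 1 was higher, with a median of -0.44. At an unadjusted p of at most 0.05 there were 14 of the 20, 2 of them higher, against 31.3% of all tested genes. Among the lower genes was TLE4 (-0.79, adjusted p = 0.00988 from limma), while CEP78 had -0.375 (adjusted p = 0.0902). Around CHAC1 and DDIT4 none of 20 neighbours each passed by limma (2 and 1 at an unadjusted p of at most 0.05). For the other members, 0 to 2 neighbours were higher and 2 to 5 lower, of 14 at TRIB3 and 20 at each of ATF4, DDIT3, ASNS and SHMT2. The part of gene copies in these values was not tested.

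The cells carried the markers of a basal breast line. All 7 tested epithelial and basal markers were above 20 RPM in each library, with EGFR at 4770 to 5712 RPM. Of these markers, 3 were lower in R, namely the keratins KRT17 (log2 fold change -1.22, adjusted p = 4.35e-04 by limma), KRT6B (-0.845, 0.00917) and KRT5 (-0.765, 0.00208), against 10.6% of all tested genes. The hormone receptors ESR1 and PGR did not exceed 3.23 and 0.404 RPM. Of the defining markers of other cells, PTPRC, CD3E, DCN, PDGFRB and VWF had 0 reads in all 4 libraries, whereas CD14 had 70.5 to 84.6 RPM, COL1A1 10.5 to 17.5 RPM and KDR 3 to 6.62 RPM. Of the endothelial genes, PECAM1 and VWF did not pass the read filter. KDR and CDH5 were tested and lower in R, as were 10.6% of all tested genes. KDR had 5.68 and 6.62 RPM in WT and 3 RPM in each R library. CDH5 had 18 and 22 reads in WT and 0 and 1 reads in R. It thus passed the filter through its WT libraries alone, which favours a lower call. The part of KDR and CDH5 in the results was not tested. The immediate early genes, which respond to handling as well as to growth signals, had 1 higher gene, FOS, and 0 lower of 5 tested by limma. Among all tested genes 5.35% were higher and 10.6% lower. At an unadjusted p of at most 0.05 there were 2 of the 5, against 31.3% of all tested genes. JUN and IER2 did not pass the read filter. RefSeq names processed or other pseudogenes for ATF4 (4), ASNS (5), PSAT1 (4) and PSPH (1), of which none is a target in the tables. Reads from such copies could have been counted with these members, which adds an uncertainty to their values whose size was not measured.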

How the data were processed

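Total RNA of 4 MDA-MB-468 samples, 2 per group, had been made into strand-specific Ion AmpliSeq Transcriptome libraries. According to the methods of the study, reads were aligned to the targeted transcripts with the Torrent Mapping Alignment Program, and DEGSeq was used for DEGs. Bowtie2, bedtools and edgeR stand, unversioned, in the submitters' notes. The genome build is not given in the sources used here. The authors deposited log2 values of RPM plus 1, rounded to 2 decimals. The scaling was undone to recover the reads, and each value of 20 reads or fewer was whole within 0.1. Rows with a repeated name (4) were left out.

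limma 3.58.1 (R language 4.3.3), with a group term and a trended prior, was run on the deposited log2 values of the 12115 genes with at least 10 reads in at least 2 libraries, and p-values were adjusted by Benjamini-Hochberg over all of them. The test was run on simulated data only with changes larger than those of the members, so its power for changes of their size was not checked. The thresholds were an adjusted p of at most 0.05 and, for DEGs, a fold of at least 2.5. The added 1 RPM makes fold changes of weakly read genes too small. The members and lists were chosen with earlier results of these data known. The genes named were the 10 members, the up to 4 genes per list with the largest change among those past the adjusted p, and the direct neighbours of members. NUPR1, SESN2, HERPUD1, CREB3L2, SLC7A11, EIF2AK1, EIF2AK3, HSPA5, MTHFD2, VEGFA, EGFR and FOS, and the cell markers named, were chosen after seeing their values. Alternative settings were RLE scaling, 0.25 or 4 RPM added, no filter, a mean of at least 50 reads, limma-voom, an unadjusted p, a replicate block and each library left out.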

Additional observations from a re-analysis of the deposited data

How the results depend on the processing

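PHGDH as the only higher member, and no lower member, held with RLE scaling, with 0.25 or 4 RPM added, with no filter, with a mean of at least 50 reads, with limma-voom and with the replicate block. With each library left out in turn, 0 to 3 members were higher and 0 to 1 lower, and with an unadjusted p 2 were lower. DDIT3 had 0.0050 with 4 RPM added and -0.585 to 0.505 with 1 library left out, ASNS -0.13 to 0.47, HSPA5 -0.04 to 0.25 and MTHFD2 -0.03 to 0.17. With 1 library left out, the lists ranged from 0 to 1 higher and 0 to 3 lower for the eIF2 regulators, 0 to 4 and 0 to 7 for the ATF4 partners and other targets, 0 to 5 and 0 to 1 for the transporters and synthetases, 0 to 2 and 0 to 3 for the one-carbon genes, 0 to 4 and 0 to 4 for the XBP1 and ATF6 arms, and 0 to 3 and 0 to 1 for the mTORC1 regulators and Tribbles genes. Each list had 0 calls without either WT library, where 11 higher and 52 lower or 10 higher and 51 lower genes were called in all, with 1 sample fewer. With an unadjusted p, 3 of the eIF2 regulators, 3 of the ATF4 partners, 5 of the transporters and synthetases, 2 of the one-carbon genes and 6 of the mTORC1 regulators were higher, and 5 of the XBP1 and ATF6 arms and 1 of the mTORC1 regulators were lower. RLE scaling gave 2 higher ATF4 partners and moved the median of all genes from -0.03 to 0.0021. PPP1R15A no longer passed with a mean of at least 50 reads or 0.25 RPM added. No filter gave 1 higher transporter or synthetase and 2 lower eIF2 regulators, and PPP1R15A, PPP1R15B, CTH, SLC3A2 and SESN2 no longer passed, where more genes were tested (16124). With the replicate block, 0 transporters and synthetases were higher and 1 one-carbon gene was lower, EIF2AK4, TARS, SLC3A2, MTR, TRIB2, SESN2 and HERPUD1 no longer passed, and 498 higher and 1115 lower genes were called in all, against 648 and 1290. The labels do not say what the replicate numbers share, and same-numbered libraries deviated from their group means with a correlation of 0.0090 across genes, so the numbers were not taken as a pairing. DDIT3, at 3 to 15 reads, is the member that depth limits.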
